A study of Mus musculus with 4 samples.

Results

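The metalloproteinases that cut extracellular matrix and shed proteins from the cell surface, together with their inhibitors, were examined in 2 regions of the embryonic mouse heart. The set holds every gene on the array whose symbol is Adam, Adamts, Adamtsl, Mmp or Timp followed by digits alone, and Reck. Of the 12393 genes that had a probe set annotated with 1 symbol, 52 met that rule, read by 80 probe sets: 22 Adam, 7 Adamts, 2 Adamtsl, 16 Mmp and 4 Timp genes, and Reck. Each gene was represented by the probe set with the highest mean over the 4 arrays, and the 5 symbols that carry a letter after the digits (Adam1a, Adam1b, Adam26a, Mmp1a and Mmp1b) were left out.

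RNA came from the atrioventricular (AV) junction and from the ventricular region, both microdissected from wild-type C57BL/6 embryos between embryonic days 10.5 and 11.0. Tissue of about 80 hearts was pooled for each region, and 230 ng of AV junction RNA and 250 ng of ventricular RNA were amplified. Affymetrix MOE430A arrays read each pool in duplicate (1a and 1b), and the 4 arrays are called AV1a, AV1b, VT1a and VT1b here. No source used here says that arrays 1a and 1b came from separate pools, so every p-value below measures the spread between arrays, which may be technical, and not the spread between hearts. A difference in bulk tissue does not tell fewer cells of a type from less RNA per cell.

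Matrix metalloproteinases (Mmp genes) are zinc enzymes that cleave collagens, proteoglycans and other matrix proteins, and are made as inactive precursors. The ADAM enzymes are membrane-anchored relatives that release growth factors, receptors and adhesion molecules from the cell surface, and the secreted ADAMTS enzymes cleave proteoglycans such as versican. Tissue inhibitors of metalloproteinases (Timp genes) block the active site, while Reck is a membrane-anchored inhibitor. During this stage endocardial cells leave their layer, enter the hyaluronan- and versican-rich jelly of the AV canal and turn into the mesenchyme of the cushions, from which valves and septa form.

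Values are the authors' MAS5 intensities, rescaled so that each array had a trimmed mean of 500, and a log2 fold is the AV junction's mean log2(intensity + 50) less that of the ventricular region. Genes whose probe set reached a mean of 100 after scaling were tested. Over the 13403 probe sets tested, which are not independent of each other, log2 intensities correlated at a Pearson's r of 0.980 (AV1a with AV1b), 0.979 (VT1a with VT1b) and at most 0.950 between regions. No detection calls were used, so the brightest of the Bacillus subtilis control probe sets on each array served as a background mark. In the AV junction it read 58.6 and 52.6 and in the ventricular region 97.9 and 104, so the mark lay higher in the ventricular region. The median log2 fold of all 8410 genes tested was −0.06, and it ran from −0.22 in the dimmest of 5 equal bins of genes to 0.05 in the brightest.

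Fewer of these genes gave a signal than genes at large. All 4 arrays were above their background mark for 24 of the 52 members (46.2%), against 63.0% of all genes, and 25 members (48.1%) were bright enough to be tested, against 67.9% of all genes. The other 27 had mean intensities between 2.26 and 94.0. Among these 27, no array rose above its mark for 12 genes. They were 7 Adam genes (Adam2, Adam3, Adam5, Adam18, Adam23, Adam24 and Adam25), several of which are known from testis and sperm, and 5 Mmp genes (Mmp7, Mmp10, Mmp12, Mmp13 and Mmp20). The 15 untested members with at least 1 array above its mark were Adam7, Adam11, Adam21, Adam28, Adam34, Adamts4, Adamts7, Adamts8, Adamtsl4, Adamtsl5, Mmp3, Mmp9, Mmp16, Mmp17 and Mmp19. Their regional difference was not tested.

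**Figure D1:**
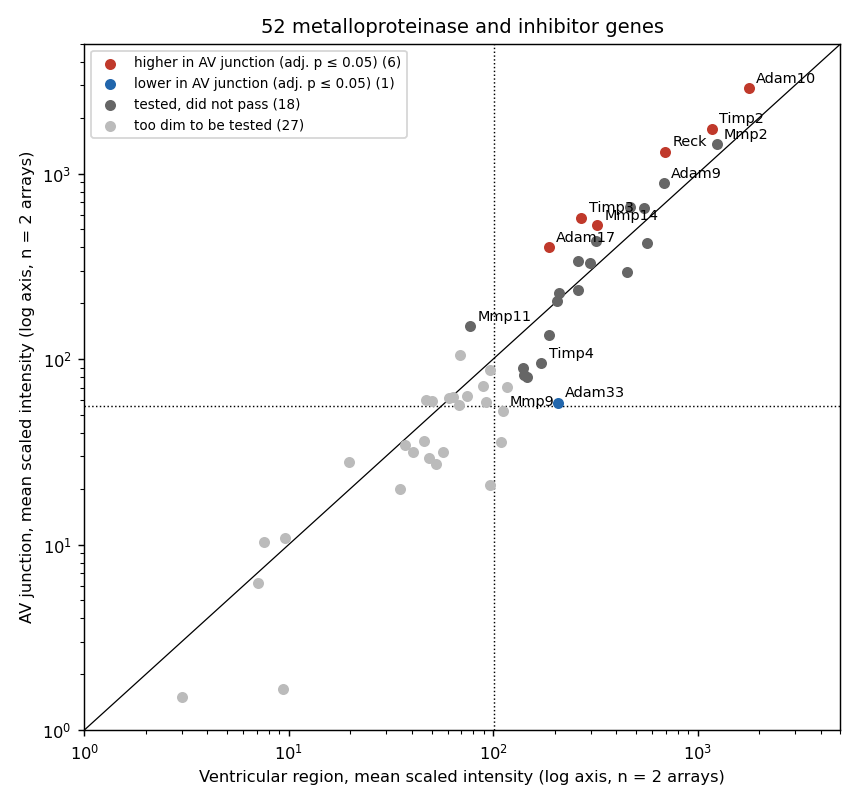
Mean scaled intensity of the 52 genes in the AV junction (vertical, log axis) against the ventricular region (horizontal, log axis), each the mean of 2 arrays. Dotted lines mark the mean of the brightest bacterial controls in each region and the diagonal marks equal values. The 6 genes higher in the AV junction (red) lie above the diagonal, Adam33 (blue) lies below it, and the 27 untested genes (light grey) lie at the low end.

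Promoter sequences are shown first, for members that moved together and for members of 1 family too dim to test. RefSeq windows (build GRCm38.p6, 250 bases before to 50 after a gene's start) were found for 29 of the 52 members. Both strands were searched for GGGCGG, the GC box bound by Sp1-type factors. They were also searched for the TATA box as TATAAA and for the core of an AP-1 site as TGANTCA, which reads the same on either strand. The 250 bases before the start are shown for 3 of the members that were higher in the AV junction (Reck, Timp3, Mmp14) and for 3 Mmp genes too dim to test (Mmp3, Mmp10, Mmp13), as examples of each. Matches to any of the motifs are in capitals, and Mmp14 holds a pair of adjoining GC boxes.
Reck, chr4:43875280-43875529, + strand: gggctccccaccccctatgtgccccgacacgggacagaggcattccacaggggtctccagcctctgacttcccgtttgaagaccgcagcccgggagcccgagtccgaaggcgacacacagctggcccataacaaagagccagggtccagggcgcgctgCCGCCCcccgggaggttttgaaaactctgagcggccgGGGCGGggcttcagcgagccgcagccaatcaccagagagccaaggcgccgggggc
Timp3, chr10:86300162-86300411, + strand: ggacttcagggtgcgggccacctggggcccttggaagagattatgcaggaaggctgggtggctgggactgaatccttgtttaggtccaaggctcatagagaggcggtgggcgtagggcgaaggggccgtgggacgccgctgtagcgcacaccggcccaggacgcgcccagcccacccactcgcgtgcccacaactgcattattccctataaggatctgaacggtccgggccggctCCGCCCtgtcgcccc
Mmp14, chr14:54431348-54431597, + strand: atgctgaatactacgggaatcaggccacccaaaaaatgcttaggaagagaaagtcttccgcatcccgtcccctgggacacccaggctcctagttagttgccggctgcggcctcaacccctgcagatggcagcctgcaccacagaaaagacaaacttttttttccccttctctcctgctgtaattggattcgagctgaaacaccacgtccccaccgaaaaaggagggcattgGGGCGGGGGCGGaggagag
Mmp3, chr9:7445572-7445821, + strand: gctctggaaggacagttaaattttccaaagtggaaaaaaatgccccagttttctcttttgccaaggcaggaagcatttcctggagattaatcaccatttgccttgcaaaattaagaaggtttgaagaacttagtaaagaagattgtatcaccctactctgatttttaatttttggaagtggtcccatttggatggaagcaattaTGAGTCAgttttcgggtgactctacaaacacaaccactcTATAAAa
Mmp10, chr9:7502092-7502341, + strand: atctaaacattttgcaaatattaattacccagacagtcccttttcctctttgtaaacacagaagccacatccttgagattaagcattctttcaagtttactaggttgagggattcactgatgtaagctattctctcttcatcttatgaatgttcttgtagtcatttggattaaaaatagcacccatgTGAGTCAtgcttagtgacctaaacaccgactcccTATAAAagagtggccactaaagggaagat
Mmp13, chr9:7272264-7272513, + strand: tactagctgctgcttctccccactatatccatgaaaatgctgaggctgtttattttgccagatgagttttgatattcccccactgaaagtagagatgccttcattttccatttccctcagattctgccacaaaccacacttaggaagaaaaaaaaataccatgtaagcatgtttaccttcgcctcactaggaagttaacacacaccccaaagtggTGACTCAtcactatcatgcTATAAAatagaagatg

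All 6 members higher in the AV junction held a GC box in their window, and 0 of the 6 held the AP-1 core or the TATA box. Of the 11 tested members with a window that did not pass, 8 also held a GC box, 1 an AP-1 core and 2 a TATA box. Windows were found for 6 of the 10 untested Mmp genes (Mmp3, Mmp7, Mmp10, Mmp12, Mmp13 and Mmp20). All 6 held an AP-1 core together with a TATA box in the same window, and 0 held a GC box. In Mmp12, however, the only TATA match lay after the start. Among all 12 untested members with a window, no other gene held both, and 2 held a GC box. In Mmp10 the AP-1 core began 63 bases and the TATA box 29 bases before the start, in Mmp3 46 and 7, and in Mmp13 35 and 16. Those 6 Mmp genes lie on chromosome 9, where members of this family are known to form a cluster. Mmp8, which was tested and did not pass, lies on chromosome 9 too. Its window held a TATA box but no AP-1 core and no GC box. Of all 32851 promoter windows in the table, 35.7% held the GC box, 7.81% the AP-1 core and 13.6% the TATA box. Counted over their 27025 genes, as for the members, the shares were 38.2%, 8.97% and 15.7%, and 1.84% of genes had an AP-1 core and a TATA box in 1 window. The 6 untested Mmp genes named above have 8 windows, of which 6 held each of the latter motifs. Median G and C content was 69.0% in the windows of the 6 higher members, 40.3% in those of the untested Mmp genes and 52.7% in all windows. A match describes letters only.

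Of the 25 members tested with limma, 6 were higher in the AV junction, 1 was lower and 18 did not pass, with p-values adjusted after Benjamini and Hochberg over every probe set tested and a threshold of 0.05. Over all 8410 genes tested, 8.47% were higher and 6.56% were lower. Among the members those shares were 24.0% and 4.0%. The higher genes were the inhibitors Timp2, Timp3 and Reck, the membrane-bound collagenase Mmp14, and the sheddases Adam10 and Adam17. Adam33 was the lower one. The median log2 fold of the 25 was 0.20, beside −0.06 over all genes. At an unadjusted p under 0.05, 9 of the 25 members were higher and 3 lower, beside 16.0% and 17.2% of all genes. Arrays of the regions did not overlap for 12 members with the AV junction above (48.0%, against 27.7% of all genes) and for 8 with it below (32.0%, against 34.7%).

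These counts moved with the arrays and the scaling. Higher members numbered 3 without AV1a, without AV1b or without VT1a, and 1 without VT1b. They numbered 3 with no floor on intensity and 1 (Adam17) with eBayes without trend. Adam10 was the single member that passed with every one of the 4 arrays left out. Of all genes called, 56.3% were higher in the AV junction, and this rose to 80.8% with median scaling, which moved the median of all genes by 0.16 and called 8 members higher and 1 lower. With 2 arrays a region, the smallest two-sided p that an exact permutation test can give is 0.333.

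**Figure D2:**
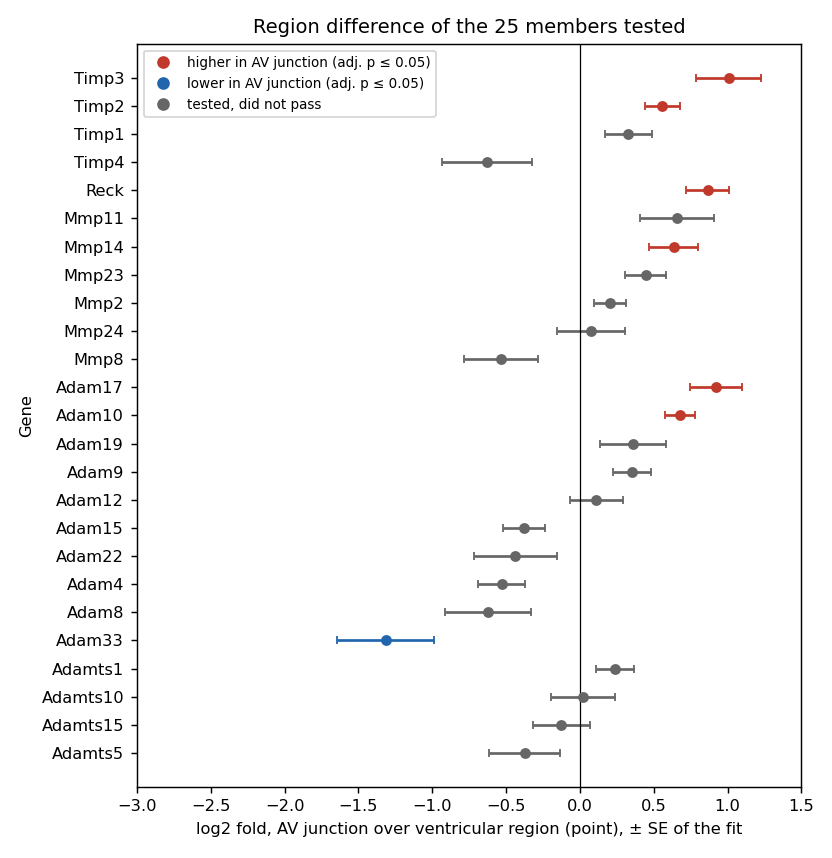
Log2 fold of the 25 tested genes, AV junction over ventricular region, as points with the standard error of the fit as bars, grouped from top to bottom as Timp, Reck, Mmp, Adam and Adamts. Timp3 at 1.01 and Adam33 at −1.32 mark the ends of the range, and the 4 Timp genes lie on both sides of 0.

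Among the inhibitors, 3 of 5 were higher in the AV junction with limma and 0 were lower, beside 8.47% and 6.56% of all genes. At an unadjusted p under 0.05, 2 of the 4 Timp genes and Reck were higher, beside 16.0% of all genes. None of the 5 had a negative log2 fold with an unadjusted p under 0.05, beside 17.2% of all genes. With 5 genes, counts of 0 lower are near those shares of lower genes. Timp3, an inhibitor that binds to the matrix and also restrains ADAM17, read 553 and 605 in the AV junction against 339 and 202 in the ventricular region. Both AV values were above both ventricular ones, and the ventricular arrays stood well apart. Its log2 fold was 1.01 with a standard error of 0.22, a 2.01-fold difference (limma, adjusted p = 0.0252). It missed when AV1a, AV1b or VT1b was left out (adjusted p up to 0.0903), and was 0.69 without VT1b. Averaging its tested probe sets gave 0.64 and no pass (limma, adjusted p = 0.0581).

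Reck, which restrains several MMPs at the cell membrane and takes part in Wnt7 signalling, read 1447 and 1177 in the AV junction and 756 and 636 in the ventricular region. The groups did not overlap, and the lower AV array still exceeded the higher ventricular one by more than either pair differed. The log2 fold was 0.87 with a standard error of 0.15 (limma, adjusted p = 0.0105). Without VT1b the adjusted p was 0.0521.

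Timp2, which inhibits MMPs and, bound to MMP14, helps to activate pro-MMP2, read 1658 and 1843 in the AV junction against 1251 and 1098. Its log2 fold was 0.56 with a standard error of 0.12 (limma, adjusted p = 0.0229), and it missed without AV1b, VT1a or VT1b (adjusted p up to 0.105). The AV arrays were higher with no overlap on this probe set.

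The other Timp genes did not pass. Timp1, the inducible inhibitor, read 333 and 347 against 264 and 258, a log2 fold of 0.33 (limma, adjusted p = 0.204). Timp4, known from adult heart muscle, had the opposite sign, with 126 and 64.4 in the AV junction and 135 and 209 in the ventricular region. Its log2 fold of −0.63 had a standard error of 0.30 (limma, adjusted p = 0.205), and the arrays of each region differed widely.

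**Figure D3:**
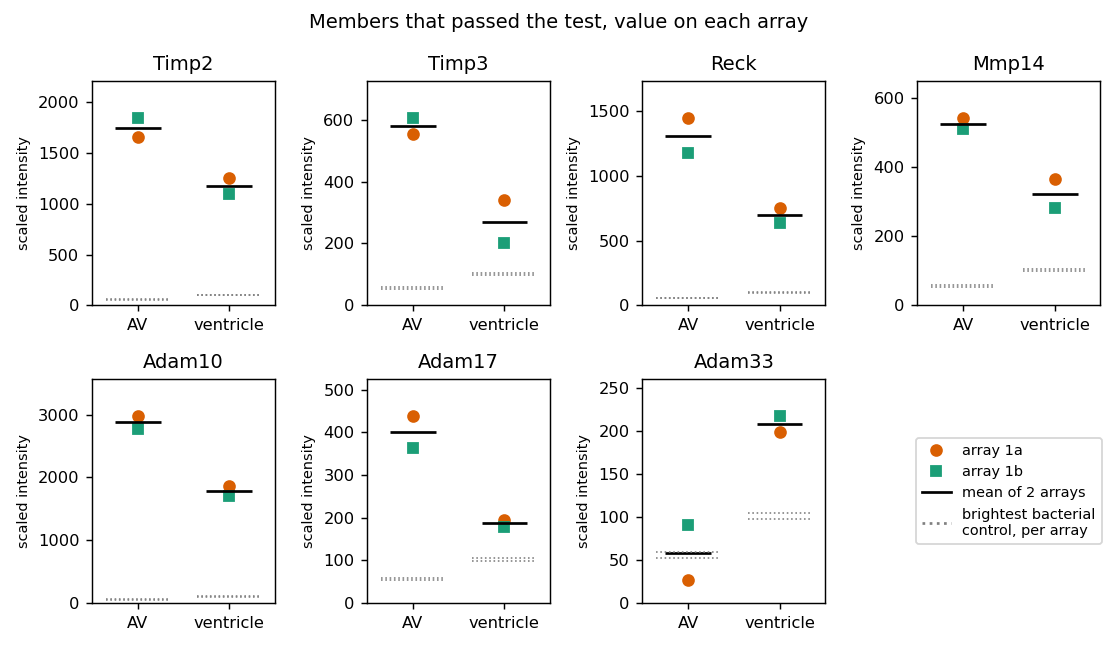
Scaled intensity on each array (circle, array 1a; square, array 1b; line, mean of the 2 arrays) for the 7 genes that passed, with axes starting at 0. Short dotted lines give the brightest bacterial control of each array. In Adam33 AV1a lies below its control at 26.1, while the other 6 genes lie above their controls on all 4 arrays.

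Of 6 tested Mmp genes, 1 was higher and 0 were lower with limma, beside 8.47% and 6.56% of all genes, and 5 did not pass. With 6 genes, counts of 1 and 0 are near those shares. At an unadjusted p under 0.05 there were 3 higher and 0 lower, beside 16.0% and 17.2% of all genes, and 0 of 6 is near the latter. Mmp14 (MT1-MMP), a membrane-anchored collagenase that activates pro-MMP2, read 542 and 509 in the AV junction against 364 and 280 in the ventricular region. The regions did not overlap, and the ventricular arrays were further apart than the AV arrays. Its log2 fold was 0.64 with a standard error of 0.17 (limma, adjusted p = 0.0444), which lies close to the threshold, and leaving out any 1 of the 4 arrays ended the call (adjusted p of 0.0621 to 0.168).

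Mmp2 (gelatinase A), which degrades basement membrane collagen and is made by mesenchyme, gave different answers on its 2 probe sets. The brighter, 1439364_a_at, which represents the gene here, read 1499 and 1377 against 1219 and 1261, a log2 fold of 0.20 that did not pass (limma, adjusted p = 0.236). The other, 1416136_at, read 1049 and 999 in the AV junction and 430 and 290 in the ventricular region. On that probe set the log2 fold was 1.41 with a standard error of 0.18 (limma, adjusted p = 0.00378), larger than that of any member's representative probe set. With a gene's tested probe sets averaged, Mmp2 passed at a log2 fold of 0.81 (limma, adjusted p = 0.00472). Which of its transcripts each probe set reads was not examined.

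The remaining Mmp genes did not pass. Mmp11 (stromelysin 3), a secreted enzyme of stroma, read 157 and 144 in the AV junction against 66.4 and 88.2, and both ventricular arrays were below their background mark. Set against that mark, the AV level was at least 1.49-fold higher, at a fitted log2 fold of 0.66 (limma, adjusted p = 0.122). Mmp23 read 710 and 607 against 467 and 470, a log2 fold of 0.45 (limma, adjusted p = 0.0741), and passed with median scaling (limma, adjusted p = 0.0324). Mmp24 overlapped between regions at a log2 fold of 0.07. Mmp8, the neutrophil collagenase, read 74.1 and 89.8 against 156 and 127, at −0.54 (limma, adjusted p = 0.192).

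Mmp9 (gelatinase B), a product of leukocytes and endothelium among others, was too dim to test. Its AV arrays read 9.38 and 95.2 and its ventricular arrays 105 and 118. The ventricular values were above both AV values and stood little above the marks of 97.9 and 104, and the AV arrays lay far apart. Mmp16, a second membrane-type enzyme, was the untested member with all 4 arrays above their marks, at 64.3 and 76.4 against 99.9 and 135.

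Of 10 tested Adam genes, 2 were higher, 1 was lower and 7 did not pass. Those shares were 20% and 10%, beside 8.47% and 6.56% of all genes, and 1 lower of 10 is near the latter. Adam10, the main sheddase of Notch receptors and N-cadherin, read 2978 and 2779 in the AV junction against 1865 and 1702 in the ventricular region. The gap between regions was several times the gap within either. Its log2 fold was 0.68 with a standard error of 0.10, or 1.60-fold (limma, adjusted p = 0.00741). With 1 array left out the log2 fold lay between 0.61 and 0.74, and the adjusted p between 0.0213 and 0.0415.

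Adam17 (TACE), which releases the ErbB ligands HB-EGF and TGF-alpha and is required for heart valve shaping in mice, read 438 and 364 against 195 and 179. The groups did not overlap. It was 1.90-fold higher in the AV junction, at a log2 fold of 0.92 with a standard error of 0.18 (limma, adjusted p = 0.0160). It missed when AV1a, VT1a or VT1b was left out (adjusted p up to 0.0838). Averaging its tested probe sets gave 0.52 and no pass (limma, adjusted p = 0.232).

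Adam33, a protease known from smooth muscle and mesenchyme, was the 1 member lower in the AV junction. It read 26.1 and 90.5 there and 198 and 217 in the ventricular region. The regions did not overlap, yet of the 2 AV arrays only AV1b was above its mark. Its log2 fold was −1.32 with a standard error of 0.33 (limma, adjusted p = 0.0401). Without AV1a it was −0.87 and missed (adjusted p = 0.102), as it did without VT1a or VT1b (adjusted p up to 0.142). The value moved with the pseudocount, to −2.07 with 1, which did not pass (limma, adjusted p = 0.0658), and to −0.67 with 200, which did (limma, adjusted p = 0.0277). In the dimmest bin of genes, in which it lies, the median log2 fold was −0.22.

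The Adam genes that did not pass pointed both ways. Adam9 read 896 and 876 against 737 and 635, a log2 fold of 0.35. Adam19, a sheddase of neuregulin expressed in endocardial cushions and needed for their remodelling in mice, read 329 and 537 in the AV junction and 345 and 292 in the ventricular region. Only AV1b stood out, and the log2 fold of 0.36 fell to 0.05 without it and rose to 0.67 without AV1a (limma, adjusted p = 0.311 with all arrays). Adam12, a protease of muscle and mesenchyme, overlapped between regions, with 287 and 370 against 280 and 319, at 0.11 with all 4 arrays and −0.05 without AV1b.

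Negative values that did not pass were seen for Adam15, Adam4, Adam8 and Adam22. Adam15, which is strong in endothelium, read 432 and 413 against 603 and 527, at −0.38 (limma, adjusted p = 0.120), and its second tested probe set gave −0.53. Adam4, known from testis, read 316 and 276 against 479 and 420, at −0.53 (limma, adjusted p = 0.0669). Adam8, a protease of myeloid cells, read 107 and 53.3 against 154 and 138, at −0.62 (limma, adjusted p = 0.188), and Adam22, which lacks catalytic activity and is known from brain, lay at −0.44.

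No Adamts gene passed: of 4 tested with limma, 0 were higher and 0 were lower, and at an unadjusted p under 0.05 these counts were 0 and 0 too, beside 16.0% and 17.2% of all genes. With 4 genes, counts of 0 are near those shares. Adamts1, a versican-cleaving enzyme of endocardium and myocardium, read 634 and 671 in the AV junction against 538 and 554 in the ventricular region. The AV arrays were above the ventricular ones with no overlap, but the log2 fold of 0.24 did not pass (limma, adjusted p = 0.246). Adamts5, which also cleaves versican and aggrecan, had the opposite sign, with 106 and 165 against 177 and 198, at −0.37 (limma, adjusted p = 0.323). Adamts10, a fibrillin-binding member, and Adamts15 lay at 0.02 and −0.13 with overlapping arrays. The ADAMTS-like genes Adamtsl4 and Adamtsl5, whose proteins lack the protease domain, were too dim to test. Adamts9, another versican-cleaving enzyme of cushions, had no probe set with 1 symbol and was not analysed here.

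Several members had more than 1 tested probe set, and these agreed in sign for Adam15, Adam17, Mmp2, Mmp23, Timp2 and Timp3 but not for Mmp24. Timp2 passed on 1454677_at too, with 728 and 711 in the AV junction against 444 and 339 and a log2 fold of 0.81 (limma, adjusted p = 0.0171). Its probe set 1433662_s_at gave 0.18 with overlapping arrays and did not pass. Timp3 gave 0.58 on 1449335_at (limma, adjusted p = 0.136) and 0.32 on 1449334_at (limma, adjusted p = 0.533). The second tested probe set of Adam17, 1421859_at, read 153 and 63.0 against 150 and 47.6, and its arrays differed more within each region than between regions (log2 fold 0.12). Mmp24 gave 0.07 on its brighter probe set and −0.44 on the other. Timp2 had 3 of its 6 probe sets tested and Adam10 had 1 of its 3. Their untested, dimmer probe sets all read lower in the AV junction, such as 58.3 and 62.0 against 169 and 98.9 (Timp2, 1420924_at). None of these was above the background mark on all 4 arrays, and that mark lay higher in the ventricular region. Adam10 1450104_at and Timp2 1437081_at were above it on no array. The untested probe set of Mmp14 read higher in the AV junction but was also above the mark on no array. Those of Timp3 and Adam17 overlapped.

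**Figure D4:**
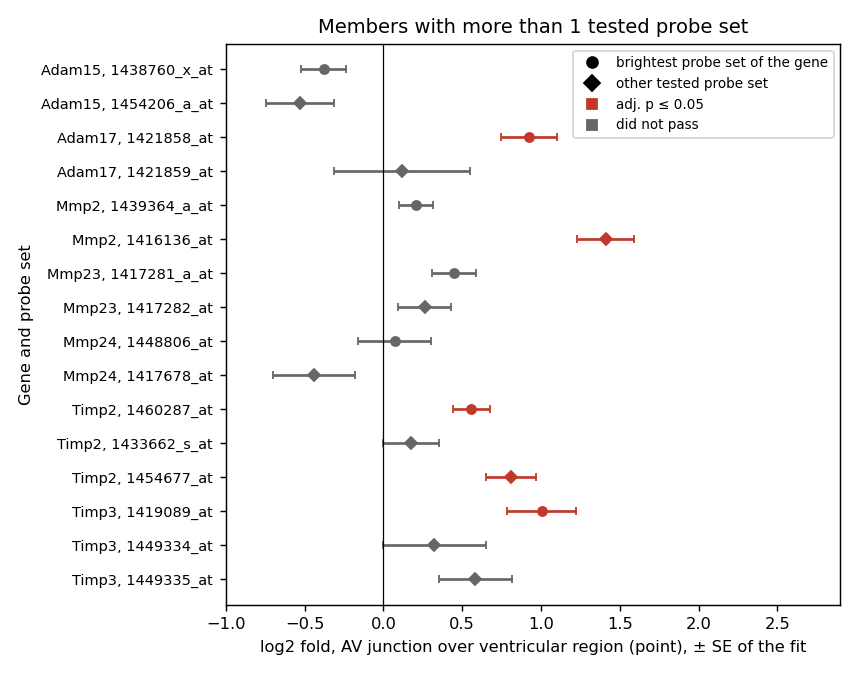
Log2 fold with the standard error of the fit for every tested probe set of the 7 genes that have more than 1, AV junction over ventricular region. Circles are the brightest probe set of a gene and diamonds the others. For Mmp2 the diamond at 1.41 lies far to the right of the circle at 0.20, whereas for Timp3 and Adam17 the circle lies to the right of the diamonds.

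Genes that work with metalloproteinases were taken from a list of 71, of which 67 had a probe set with 1 symbol and 50 were tested. The AV junction had the higher level for 10 of these and the lower level for 4 (limma; 20.0% and 8.0%, beside 8.47% and 6.56% of all genes), and 36 did not pass. The median log2 fold was 0.18. Higher genes numbered 6 without AV1a or either ventricular array, and lower genes numbered 1 or 2 with any 1 array left out.

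Among the activators, none of the 4 tested proprotein convertase genes, whose enzymes cut the propeptides of ADAMs and membrane-type MMPs, passed with limma, and 1 (Pcsk5) had an unadjusted p under 0.05. Furin lay at 0.23, Pcsk5 at 0.50, Pcsk7 at −0.27 and Pcsk6 at −0.52. Of all genes, 8.47% were higher and 6.56% lower, and with 4 genes a count of 0 is near those shares. At an unadjusted p under 0.05 the shares were 16.0% and 17.2%, and 1 of 4 genes is near them too. In the plasminogen system, which can activate secreted MMPs, the tissue activator gene Plat was higher, with 390 and 379 against 245 and 214 (log2 fold 0.64, limma, adjusted p = 0.0426), and the urokinase gene Plau was too dim to test. Bsg, the MMP inducer, overlapped between regions at −0.26. Pcolce, an enhancer of procollagen trimming by the tolloid enzymes, was higher at 0.43 (limma, adjusted p = 0.0340). Plat and Pcolce each missed with any 1 of the 4 arrays left out (limma, adjusted p up to 0.148 for both), and Pcolce also with quantile normalisation or averaged probe sets. The gene of the enzyme itself, Bmp1, did not pass at 0.48.

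Partners of ADAM10 and ADAM17 included 1 higher and 1 lower gene among 5 tested (20% each, beside 8.47% and 6.56% of all genes). Tspan14, a tetraspanin that carries ADAM10 through the cell, read 351 and 409 in the AV junction against 179 and 161, a log2 fold of 0.96 (limma, adjusted p = 0.0144). It missed without AV1b, VT1a or VT1b (adjusted p up to 0.0763). Tspan33, of the same tetraspanin group and known from erythroid cells, went the other way, with 135 and 121 against 368 and 377, a log2 fold of −1.25 (limma, adjusted p = 0.00609). Erythroid markers were lower in the AV junction on the same arrays, and their part in this value was not tested. Tspan5, Tspan15 and Rhbdf1, a carrier of ADAM17, lay at −0.02, 0.00 and −0.19.

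Among 28 tested genes of substrates, 7 were higher in the AV junction and 3 lower with limma. Those shares were 25% and 10.7%, beside 8.47% and 6.56% of all genes. Vcan (versican), cleaved by ADAMTS enzymes, read 6798 and 6371 in the AV junction against 2995 and 2873, a log2 fold of 1.15 (limma, adjusted p = 0.000573). The interstitial collagen genes Col3a1 and Col1a2, whose products MMP14 can cleave, were higher at 1.26 and 0.89, and Fn1 (fibronectin) at 1.05 (0.51 with its tested probe sets averaged). Kitl, the Kit ligand shed by ADAM17, had the largest difference, 3009 and 2958 against 480 and 286 (log2 fold 2.84, limma, adjusted p = 0.000397), which was 1.09 with its tested probe sets averaged.

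Nid1, a linker of basement membranes, was higher at 0.86, and Notch2, a receptor cut by ADAM10, at 0.69. Nid1 missed without AV1a or VT1b (limma, adjusted p up to 0.0608), and Notch2 without AV1a or either ventricular array (limma, adjusted p up to 0.0574). Averaging its probe sets left Notch2 at 0.08. The lower substrates were Hspg2 (perlecan) at −0.82, the syndecan gene Sdc3 at −0.57 and Col4a1, a chain of basement membrane collagen, at −0.40. Hspg2 missed without AV1b or VT1b (limma, adjusted p up to 0.0783). Sdc3 and Col4a1 each missed with any 1 of the 4 arrays left out (limma, adjusted p up to 0.164 and 0.133) and with median scaling. Sdc3 was also lost with quantile normalisation, and Col4a1 with averaged probe sets. Notch1 at 0.38 and the ErbB ligand genes Hbegf and Tgfa at 0.36 and −0.08 did not pass.

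**Figure D5:**
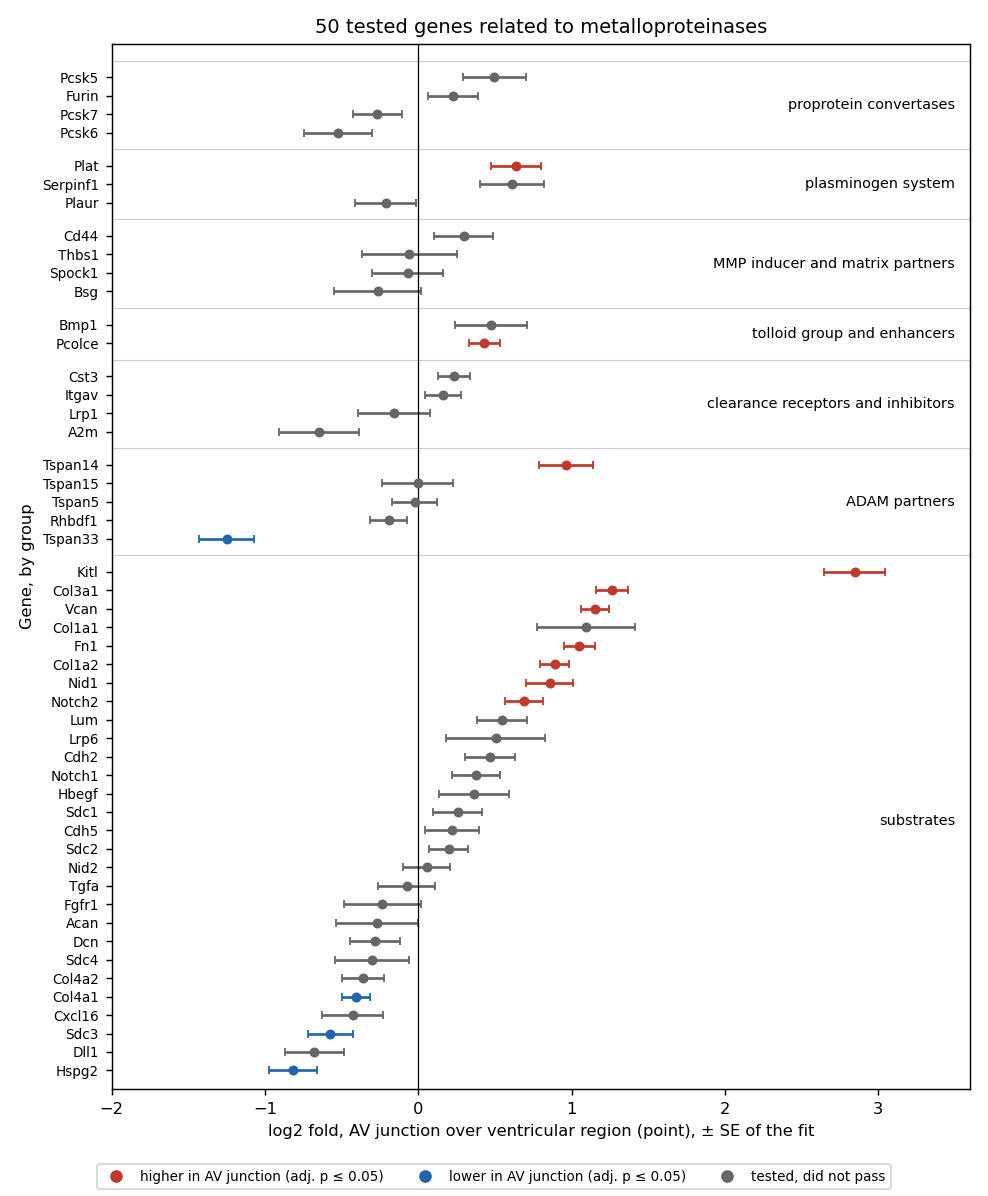
Log2 fold with the standard error of the fit for the 50 tested related genes, AV junction over ventricular region, in 7 groups. Red and blue points passed the test. Kitl at 2.84 lies far to the right, the substrates spread to both sides of 0, and no proprotein convertase passed.

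Marker genes were read beside these values. All 6 markers of AV canal and cushion (Bmp2, Tbx2, Tbx3, Twist1, Postn and Has2) were higher in the AV junction, and 3 of 4 markers of ventricular muscle were lower, as the labels of the tissues have it. Transcripts of other cells moved with region too, and their part in the metalloproteinase values was not tested. Of all genes tested, 8.47% were higher and 6.56% lower. Of 5 liver and endoderm genes, 4 were tested and 3 were higher in the AV junction. The summed intensity of the 5 was 7122 and 6703 there against 448 and 449. Of 7 erythroid genes found, 4 were lower, with sums of 38103 and 39557 against 65994 and 73328. Of 7 macrophage and leukocyte genes found, 4 were tested. Csf1r was higher (2287 and 2363 against 971 and 1137) and Lyz2 lower, and the 7 genes summed to 3234 and 3266 against 1994 and 2245. Without Csf1r the other 6 summed to 947 and 903 against 1023 and 1108, the opposite direction. Of 6 endothelial genes, 4 were tested and Tek alone was higher. The 6 genes summed to 2065 and 2413 against 1495 and 1699. Without Tek the other 5 summed to 1003 and 982 against 918 and 1076, and Emcn read 103 and 131 against 244 and 203 (log2 fold −0.71, limma, adjusted p = 0.0730). Epicardial genes had 0 higher and 2 lower (Krt18 and Krt19) of 7 with limma, with sums of 3827 and 3687 against 4838 and 4779. At an unadjusted p under 0.05 these counts were 0 and 3, beside 16.0% and 17.2% of all genes. The log2 fold was negative for 5 of the 7 and positive for Wt1 (0.13) and Tcf21 (0.33), neither of which passed. The markers Pecam1, Tie1 and Itgam lay below the background mark on all 4 arrays. Several others, Afp among them at 17.1 and 18.8, were not above it on either ventricular array.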

How the data were processed

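The authors deposited 1 linear intensity per probe set and array, made with MAS5 per the submitters' processing notes; no version is given in the sources used here. The experiment records of the 4 arrays show the same chip lot, day and fluidics protocol, with a separate fluidics module for each array. Of 22626 non-control probe sets, 20380 have 1 gene symbol in the platform annotation, 691 several and 1555 none. All 52 members' Entrez ids and symbols were found in a RefSeq gene table.

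Intensities were multiplied so that the 2% trimmed mean of every array was 500. Probe sets with a mean of at least 100 were tested (13403; 9223 were left out). The fit used log2(intensity + 50) and limma 3.58.1 (lmFit, eBayes with trend, region as the term) in R 4.3.3, with Benjamini-Hochberg adjustment over all probe sets tested. Fold differences include the added 50. The number of arrays limits the precision. An "at least" fold sets the brighter region against the brightest Bacillus control.

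Members and lists were chosen with earlier results of these data known. Genes named are all that passed, 16 fixed by name, of which 15 had a probe set with 1 symbol (Adamts9 had none), and the 6 largest folds that did not pass; of related genes, the 10 smallest adjusted p. Adam9, Adam22, Mmp16, Mmp24, Adamts10, Adamts15, other related genes and markers were named after their values were seen. Promoter motifs and windows shown were also chosen then. Alternatives were quantile and median scaling, pseudocounts of 1 and 200, the floor removed or raised to 300, eBayes with a constant prior variance, a replicate block, averaged probe sets and each array left out. Figures used matplotlib 3.10.9.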

Additional observations from a re-analysis of the deposited data

How the results depend on the processing

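Of 378 values of the 30 named genes tested, under 13 alternatives, 329 kept their direction and their side of the threshold, 45 no longer passed, 3 newly passed and 1 changed sign (Adam12, at −0.049 without AV1b and up to 0.27 without AV1a). Members higher numbered 3 with no filter and 1 (Adam17) with eBayes without trend, against 6, and 1 to 3 with an array left out. Members lower numbered 0 with quantile normalisation, a pseudocount of 1, the floor removed or at 300, or eBayes without trend, 2 with averaged probe sets (Adam4 and Adam33), and 0 to 1 with an array left out. Related genes higher were 6 to 8 and lower 1 to 2 with an array left out, against 10 and 4; lower ones were 2 with median scaling or no filter and 1 with eBayes without trend. With the replicate letter as a replicate block, 6 members were higher and 1 lower, as without it, while all genes called went from 712 higher and 552 lower to 960 and 854. The letters are not stated to pair the arrays, and the deviations of same-lettered arrays correlated at 0.06. Signals near the background mark limit what can be said of the 27 untested members. The cause of these shifts was not tested.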
